A study of Mus musculus with 20 samples.

Results

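The genes described here are the nuclear-encoded subunits of complex I, taken as all protein-coding genes whose symbol is Ndufa, Ndufb, Ndufc, Ndufs or Ndufv followed by a number. The rule found 36 genes among 49005 with counts, and left out assembly factors (Ndufaf genes) and pseudogenes. It also left out Ndufab1, a complex I gene whose symbol does not have this form. They were measured by sequencing polyA-selected RNA from whole hearts of wild-type C57BL/6 mice of 12 weeks, with 5 samples for each sex on chow and 5 for each sex on a high-fat diet. All groups share strain, genotype, tissue and age, and no gene was modified in any of them. The sample names give Chow or PA, and PA was taken to mean the high-fat diet (HFD) because it is the other diet of the study. How long the diet lasted, when hearts were taken and whether samples are separate animals are not given in the sources used here. The p-values therefore measure the spread between these samples.

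Complex I, NADH:ubiquinone oxidoreductase, is the entry point of electrons from NADH into the respiratory chain of the inner mitochondrial membrane. It passes electrons from NADH through a flavin and a chain of iron-sulfur clusters to ubiquinone and pumps protons across the membrane, and heart muscle, which is dense in mitochondria, depends on it for much of its ATP. Its subunits come from both genomes: the proton-pumping core of the membrane arm is encoded in mitochondrial DNA (the mt-Nd genes), and the rest in the nucleus. The nuclear subunits were grouped by place in the complex into the N module, where NADH is oxidised (10 genes), the Q module, where ubiquinone is reduced (6 genes), the proximal membrane arm (9 genes) and the distal membrane arm (10 genes). The remaining gene, Ndufa4, carries a complex I name, but its protein is a subunit of cytochrome c oxidase, complex IV.

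Counts summed over exon pieces came to 57805110 to 85794067 per library in 19 libraries, and the members made up 1.46% to 1.86% of them (median 1.54%). Chow male 4 was counted in another way, per gene, and was left out of all comparisons, so chow males number 4. High-fat females 4 and 5 stood apart from the other 17 libraries: they lay at 95.02 and 131.88 on the axis of largest variation, against -20.86 to -1.89, and for each 10 points of GC content their counts rose by 0.59 and 0.86 on the log2 scale (-0.07 to 0.14 in the rest). Results that use high-fat females are therefore given with and without these libraries. Heart muscle markers were abundant in every library. Myh6, Tnnt2, Tnni3, Actc1, Ryr2, Pln, Atp2a2 and Myl2 summed to between 96800 and 115000 CPM (counts scaled to library size). The adipocyte list summed to at most 2.3 CPM, the skeletal muscle list to at most 2.41 CPM and the brown adipocyte list to at most 34.4 CPM. Pdk4, a kinase gene induced by fatty acids, was called higher on high fat in both sexes, by 1.45 ± 0.17 (SE) log2 units in females and 2.48 ± 0.19 in males (edgeR adjusted p = 0.000396 and 1.17e-06).

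All 36 subunit genes were expressed in every library. The lowest value of any of them was 68.08 CPM, for Ndufb4 in high-fat female 2, and all passed the filter on low counts. They varied little: the library with the highest CPM exceeded that with the lowest by 1.24-fold to 1.55-fold (median 1.40-fold). Since CPM of genes of different length cannot be compared, levels were set side by side per kilobase, using the exon piece with the largest count in each gene. On that scale Ndufa4, the complex IV subunit, was the most abundant at 3526 ± 302 CPM per kilobase (SD, n = 19 libraries). It lay well above the next gene, and its lead is larger than the spread between libraries. That spread does not cover the length of the pieces, which ran from 61 to 255 bases. A read can count in each piece it overlaps, which can raise values per kilobase of short pieces, and this was not tested. The piece of Ndufa4 was the shortest at 61 bases, and that of Ndufb5 had 62. The distal membrane arm subunits Ndufb5, Ndufb8 and Ndufb10 followed at 1309 ± 122, 1213 ± 120 and 1125 ± 108, values whose spreads overlap with the neighbour in the order. The lowest was Ndufc2, a small subunit of the membrane arm, at 200.5 ± 19.6, and the median was 523.1 CPM per kilobase. Ndufc2 had the longest piece, at 255 bases. By all pieces Ndufb5 ranked 30 of the 36 and Ndufc2 25, and in chow male 4, counted once per gene, they ranked 34 and 16.

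The core catalytic subunits named here lay below these. Ndufv2 and Ndufv1, which with Ndufs1 form the NADH-oxidising tip of the N module, lay at 906.6 ± 79.7 and 739.5 ± 63.4 CPM per kilobase, and Ndufs1 at 435.3 ± 23.2 (SD, n = 19). In the Q module Ndufs7, which lines the ubiquinone site, lay at 494.8 ± 53.6. Ndufs3 and Ndufs8, the latter a carrier of iron-sulfur clusters, lay at 420.5 ± 35.0 and 269.7 ± 27.9. The order depends on the scale: across the 36 genes, which are not independent replicates, the rank correlation was 0.60 between the largest piece and all pieces, and 0.45 between the largest piece and chow male 4, counted once per gene. Ndufa4 stood first by all pieces at 946.0 CPM per kilobase, but at 466.1 in chow male 4 it lay behind Ndufb9 (760.9) and Ndufs6 (481.8).

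**Figure D1:**
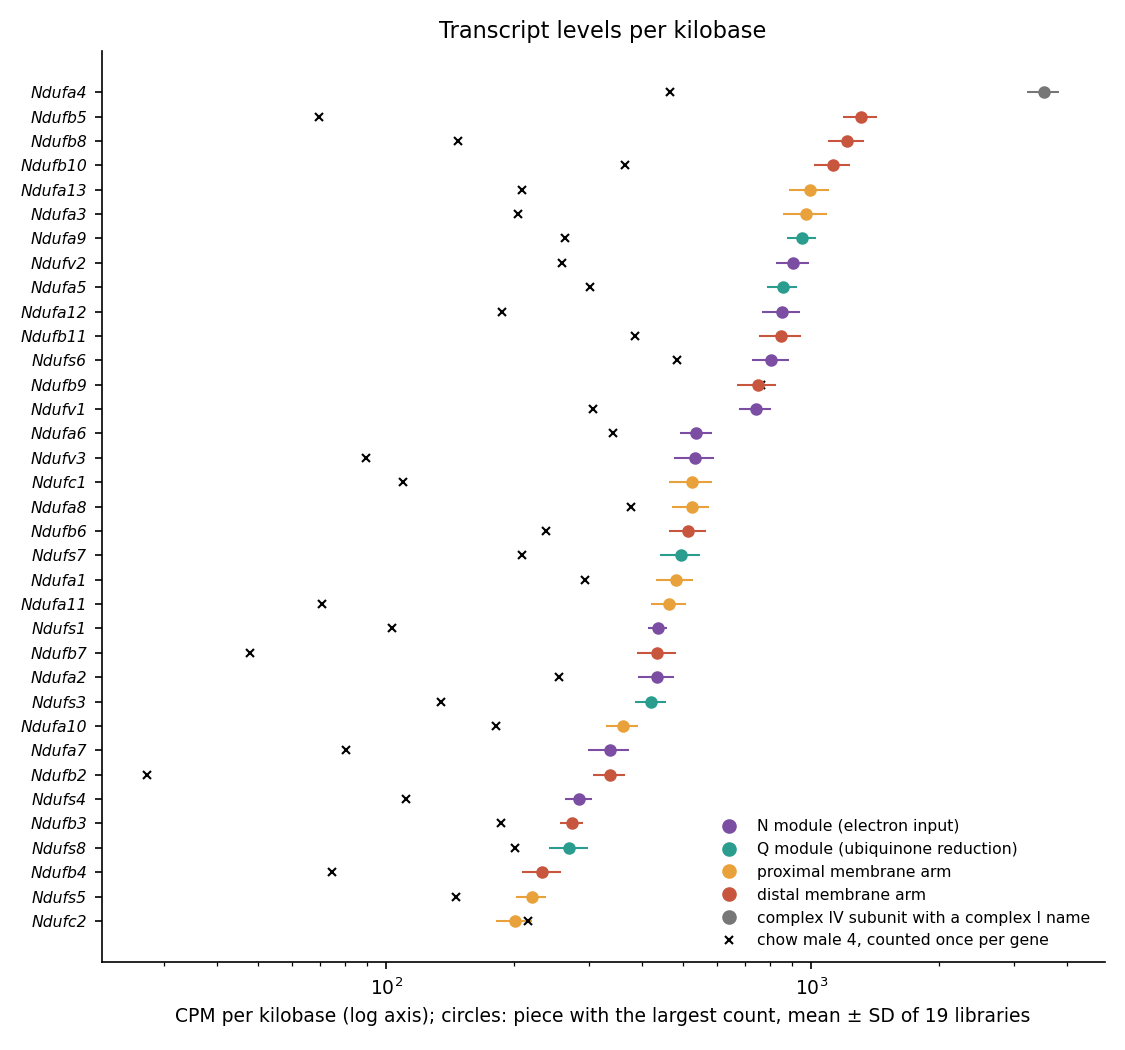
Transcript level of 35 of the 36 genes in CPM per kilobase on a log axis. Circles give the mean ± SD of 19 libraries for the exon piece with the largest count, coloured by place in the complex, and crosses give chow male 4, counted once per gene; Ndufa4 stands highest among the circles at 3526, and Ndufc2 lowest at 200.5.

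The promoters were searched for the letters of factors known to bind genes of the respiratory chain. RefSeq's table for GRCm38.p6 holds 34 promoter windows for 32 of the 36 genes, each running from 250 bases before to 50 bases after the start of transcription. The letters AAGATGGC, bound by the zinc finger factor YY1 and searched on both strands, were found in 7 of the 34 windows (20.6%), against 903 of 32851 windows of all genes (2.75%) and 3.05% of those of protein-coding genes. Promoters of mitochondrial ribosomal protein genes held them in 12 of 75 windows and those of the nuclear-encoded complexes II to V in 3 of 39 (7.69%). The median GC content was 59.0% in the members' windows and 52.7% in all windows, and the shares given here were not matched for it. The letters GCATGCGC of NRF1 were in 8.82% of the members' windows (2.71% of all), CCGGAAGT of the ETS factor GABPA in 2.94% (3.89% of all), GGGGCGGGG of Sp1 in 14.7% (11.4% of all), and TCAAGGTCA of the estrogen-related receptors in 0% (0.423% of all).

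All 7 matches lay on the gene's own strand, 23 to 39 bases after the annotated start. They are printed because they share 1 placement: in 7 of 7 the ATG within the letters is an annotated start codon in GENCODE vM21, so the match spans the point where translation begins. Each line gives 30 bases of the gene strand, 5′ to 3′, with the match in capitals.
Ndufs7: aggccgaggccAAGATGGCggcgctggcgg
Ndufs4: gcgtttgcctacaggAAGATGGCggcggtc
Ndufs6: aagggtcaccggcAAGATGGCggcggtgct
Ndufa9: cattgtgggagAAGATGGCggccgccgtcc
Ndufa3: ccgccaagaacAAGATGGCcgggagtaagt
Ndufc1: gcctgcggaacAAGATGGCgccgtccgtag
Ndufb8: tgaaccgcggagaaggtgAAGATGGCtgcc
In GRCm38.p6 these windows are chr10:80249462-80249491 (plus strand) for Ndufs7, chr13:114388045-114388074 (minus) for Ndufs4, chr13:73328433-73328462 (minus) for Ndufs6 and chr6:126849097-126849126 (minus) for Ndufa9. Those of Ndufa3, Ndufc1 and Ndufb8 are chr7:3617384-3617413 (plus), chr3:51408915-51408944 (minus) and chr19:44555393-44555422 (minus). A match of letters is a description of the sequence and does not show that a factor is bound there. The shares of windows above were not matched for the distance from the start of transcription to the start codon.

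The subunit genes moved as a block from library to library. Each gene's log2 CPM was compared with its mean in the chow libraries of the same sex. In chow female 5 all 36 genes lay above that mean, with a median of 0.13. In chow female 1 only Ndufs1 lay above it, and the median was -0.13, so chow females alone spread over that range. Within a library the genes lay close together, with an interquartile range of 0.03 to 0.12 log2 units.

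The 5 high-fat females fell into separate sets. Relative to chow females the medians of females 1, 2 and 3 were -0.17, -0.23 and -0.16, with 35, 36 and 36 of the 36 genes below. The medians of females 4 and 5 were 0.19 and 0.22, with 33 and 34 genes above. These are the libraries that stand apart in GC content, and their part in the members' difference was not tested. The modules lay at similar values in these libraries: in high-fat female 2 the medians were -0.24 for the N module, -0.18 for the Q module, -0.24 for the proximal arm and -0.23 for the distal arm, and in high-fat female 4 they were 0.13, 0.20, 0.20 and 0.21. Among high-fat males 1 to 5 the medians were -0.11, -0.05, -0.05, 0.02 and -0.12, and only male 4 had more genes above (23) than below.

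**Figure D2:**
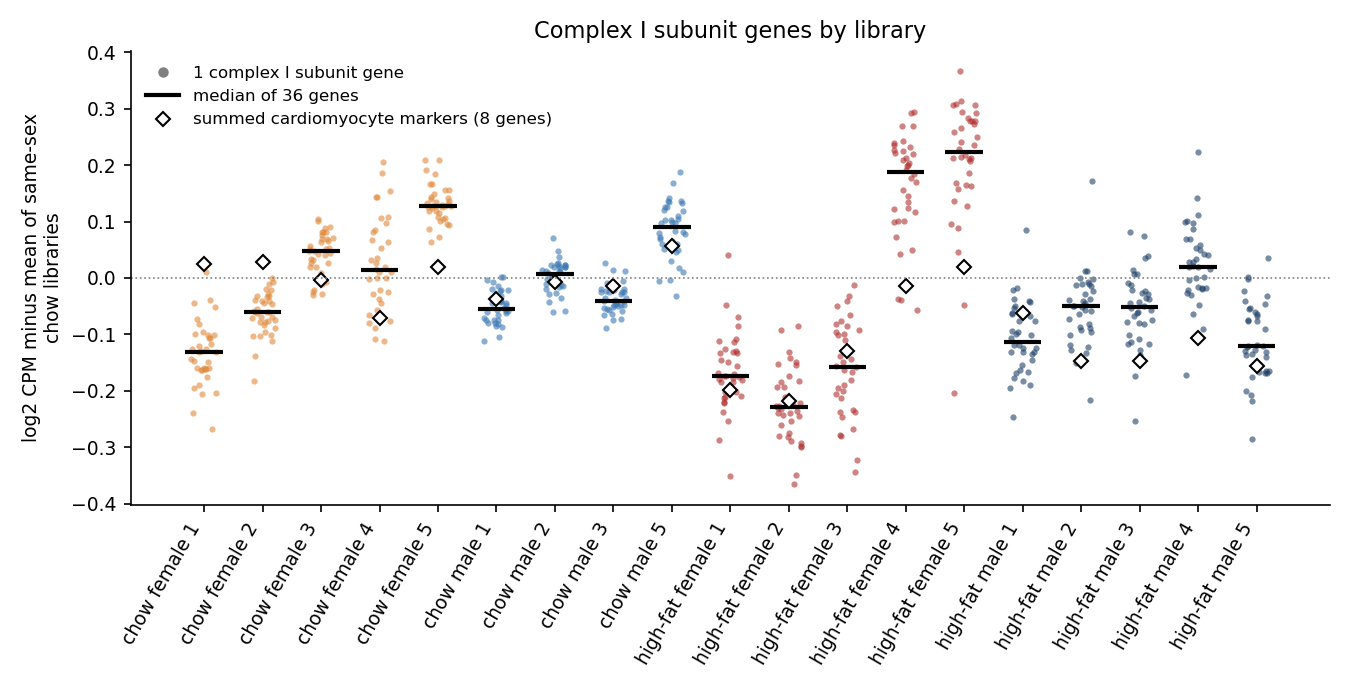
Log2 CPM of the 36 genes in each library minus the mean of the chow libraries of the same sex. Each dot is 1 gene, bars are the medians over the genes, and open diamonds give the summed level of 8 heart muscle markers on the same scale. High-fat females 1 to 3 lie below 0 and high-fat females 4 and 5 above, and the diamonds lie near the bars in the former and near 0 in the latter.

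The first comparison is of diet in females. With all 5 high-fat females no subunit gene was called, against 2.53% of all genes tested (457 of 18069). A gene was called at an adjusted p under 0.05 by edgeR's quasi-likelihood F-test. DESeq2 also called 0, and 1 gene had an unadjusted p under 0.05. The log2 changes ran from -0.13 to 0.10 with a median of -0.02, the same as the median of all genes tested (-0.02). The lowest end of any single gene's 95% interval was -0.31 and the highest 0.31.

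The gene with the smallest p was Ndufs1, the largest core subunit, which binds iron-sulfur clusters in the N module. It stood at 1423, 1402, 1383, 1351 and 1510 CPM in chow females 1 to 5 and at 1366, 1325, 1278, 1374 and 1227 CPM in high-fat females 1 to 5. The groups overlapped, and the difference of -0.11 ± 0.04 (SE) did not pass (edgeR adjusted p = 0.191). In high-fat female 5, where 34 genes lay above chow, Ndufs1 was the lowest of the 36 at -0.20. Ndufb3 of the distal arm and Ndufa1, a small X-linked subunit of the proximal arm, came next with differences of -0.11 ± 0.05 and -0.13 ± 0.08 (edgeR adjusted p = 0.283 and 0.405).

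Without high-fat females 4 and 5, 13 of the 36 genes were called lower and none higher, against 2.5% of genes called lower and 4.95% called either way in that comparison. All 36 changes were below 0, with a median of -0.20 (-12.8%) and a range from -0.31 to -0.07, where the median of all genes tested was 0.00. Of the 36, 32 had an unadjusted p under 0.05. The calls were spread over the complex: 4 of 10 genes of the N module, 2 of 6 of the Q module, 2 of 9 of the proximal arm, 4 of 10 of the distal arm, and Ndufa4. The 13 were Ndufs7, Ndufv2, Ndufa9, Ndufb4, Ndufb5, Ndufa12, Ndufc1, Ndufa4, Ndufa11, Ndufs4, Ndufb6, Ndufa2 and Ndufb2. The choice of libraries was known to matter from earlier results of these data, and the count is not independent support for a fall.

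Ndufs7, the Q module subunit that holds the last iron-sulfur cluster before ubiquinone, had one of the smallest p. It stood at 432.8, 460.2, 513.9, 472.5 and 523.6 CPM in chow females 1 to 5 and at 375.7, 391.4 and 420.1 CPM in high-fat females 1 to 3. Those 3 lay below every chow female, while females 4 and 5 at 503.9 and 537.0 CPM lay within the chow range or above it. The change over the 3 was -0.28 ± 0.06 (edgeR adjusted p = 0.0118).

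Ndufv2, a core subunit of the N module with an iron-sulfur cluster, stood at 670.8, 660.8, 693.8, 749.1 and 760.3 CPM in chow females and at 633.3, 601.7 and 581.7 CPM in high-fat females 1 to 3. These groups did not overlap, and the change was -0.23 ± 0.05 (edgeR adjusted p = 0.0118). In females 4 and 5 it stood at 810.5 and 818.9 CPM, above every chow female. Ndufa9, which helps to hold the hydrophilic arm to the membrane arm, stood at 686.9, 673.0, 719.2, 683.9 and 769.6 CPM on chow and at 598.2, 621.8 and 632.4 CPM in high-fat females 1 to 3, a change of -0.20 ± 0.04 (edgeR adjusted p = 0.0147). Its values in females 4 and 5 were 805.5 and 790.7 CPM, again above every chow female.

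The distal arm subunits Ndufb4 and Ndufb5 fell by 0.30 ± 0.07 and 0.22 ± 0.05, and the N module subunit Ndufa12 by 0.25 ± 0.06 (edgeR adjusted p = 0.0179, 0.0187 and 0.0200). Ndufc1, a small subunit of the membrane arm, had the largest fall at 0.31 ± 0.08, and Ndufa4 fell by 0.22 ± 0.06 (edgeR adjusted p = 0.0228 and 0.0278). At the other end Ndufa3 of the proximal arm had the smallest value at -0.07, and that of Ndufs1 was -0.10, with neither called. In 14 genes all 3 high-fat females lay below every chow female, against 6.46% of all genes tested.

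The number of called genes rests on single libraries. When 1 more high-fat female was left out it was 6 (female 1), 0 (female 2) and 3 (female 3). When 1 chow female was left out it was 24, 15, 10, 9 and 6 for females 1 to 5. The median change moved less, between -0.23 and -0.16.

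Markers of other cells moved in the same libraries. The summed heart muscle markers were 96800 to 103000 CPM in high-fat females 1 to 3 against 107000 to 115000 in chow females, or -0.20, -0.22 and -0.13 log2 units relative to chow, and 112000 to 114000 CPM in females 4 and 5. All 8 markers were detected. The 7 fibroblast markers summed to 1520 to 1790 CPM in females 1 to 3, to 1470 to 1630 CPM in females 4 and 5 and to 1200 to 1340 CPM on chow. The 5 endothelial markers summed to 816 to 887, 828 to 843 and 678 to 781 CPM in the same order. The 5 red blood cell markers summed to 359 to 419 CPM in females 1 to 3, 220 to 388 CPM in females 4 and 5 and 235 to 297 CPM on chow. Without females 4 and 5, 4 of the 5 were called higher on high fat, where 4.95% of all genes were called either way. The 4 atrial heart muscle markers summed to 40.7 to 67.3, 74.3 to 90.3 and 94.9 to 154 CPM in the same order, with Sln near 0. The 5 smooth muscle and pericyte markers summed to 580 to 593, 306 to 425 and 509 to 583 CPM. The 6 macrophage markers summed to 142 to 155, 130 to 140 and 124 to 155 CPM. The 3 brown adipocyte markers, with Ucp1 near 0, summed to 21.8 to 25.1, 29.2 to 34.4 and 18.0 to 23.4 CPM in the same order. In males the brown adipocyte sums were 24.0 to 28.1 CPM on high fat and 19.9 to 21.5 CPM on chow. The part of these cell markers in the members' fall was not tested. In bulk RNA fewer heart muscle cells and less of this RNA per cell cannot be told apart.

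**Figure D3:**
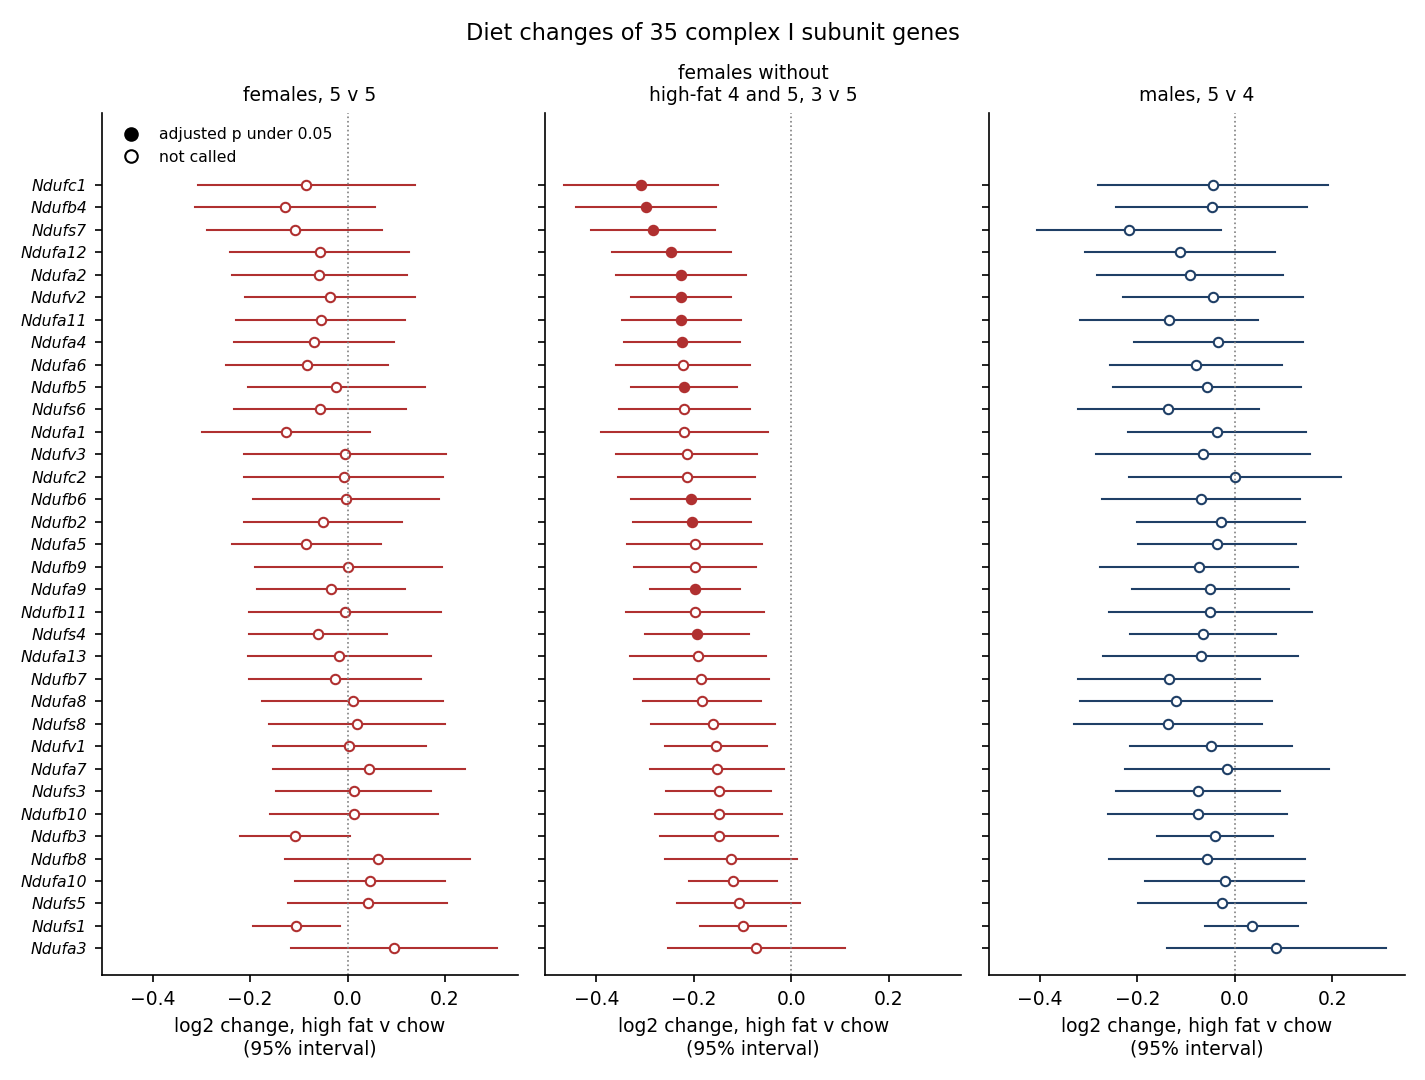
Log2 change on the high-fat diet of 35 of the 36 genes with its 95% interval, from edgeR fits, for females with all libraries, females without high-fat females 4 and 5, and males. Filled circles passed an adjusted p of 0.05; 13 genes are filled in the middle panel and none in the others, and in the middle panel all 35 circles lie below 0.

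In males the same comparison called none of the 36 genes, against 0.764% of all genes tested (138 of 18069). DESeq2 called 0 as well, and 1 gene had an unadjusted p under 0.05. The changes ran from -0.22 to 0.09 with 32 of 36 below 0 and a median of -0.05 (-3.65%), where the median of all genes tested was 0.00. The lowest end of any single gene's 95% interval was -0.41 and the highest 0.31.

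Ndufs7 had the largest change in males. It stood at 465.4, 487.3, 461.6 and 521.5 CPM in chow males 1, 2, 3 and 5 and at 434.3, 416.2, 405.5, 429.0 and 396.4 CPM in high-fat males 1 to 5. Every high-fat male lay below every chow male, and the change was -0.22 ± 0.09, or -14.0% (edgeR adjusted p = 0.469). It was also the lowest of the 36 genes relative to chow in high-fat males 2, 3, 4 and 5 and in high-fat female 1.

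The male result for Ndufs7 depends on which libraries set the shared spread. When high-fat females 4 and 5 were left out it was called (-0.21 ± 0.06, edgeR adjusted p = 0.0441), where 2.59% of genes were called either way and 1.23% lower. Ndufs7 was also called from male libraries alone (edgeR adjusted p = 0.0129), a fit whose share of all genes called is not given here. Ndufa11 of the proximal arm and Ndufs6, an N module subunit that binds zinc, came next with -0.13 ± 0.09 and -0.14 ± 0.09, and neither passed (edgeR adjusted p = 0.794 and 0.798). High-fat males lay wholly below chow males in 4 genes, Ndufs7, Ndufa11, Ndufs8 and Ndufb5, and wholly above in none, against 3.98% and 3.6% of all genes tested. Heart muscle markers summed to 99400 to 106000 CPM in high-fat males and 108000 to 115000 CPM in chow males, and their part in these values was not tested.

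**Figure D4:**
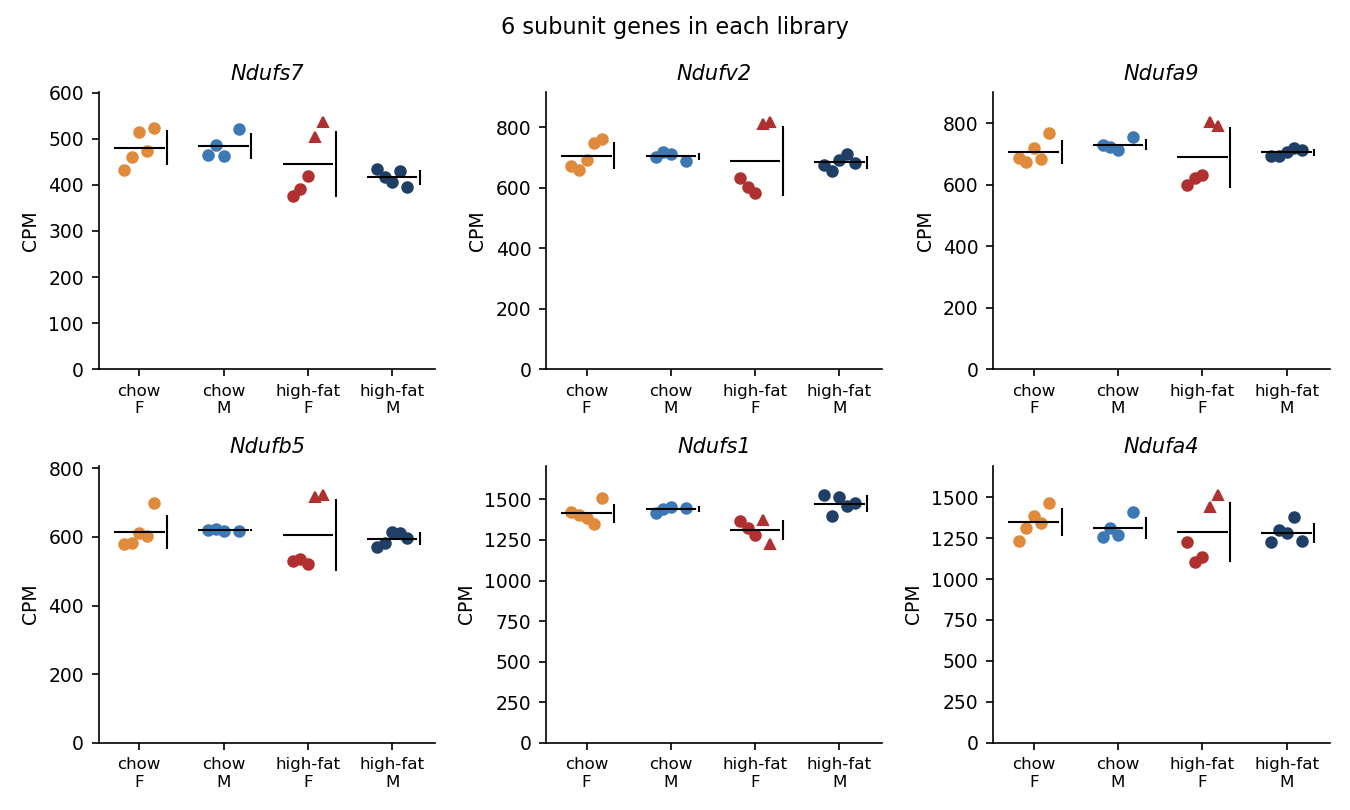
CPM of 6 genes in each library by group (F, female; M, male). Horizontal lines are group means, vertical lines ± 1 SD, and triangles mark high-fat females 4 and 5. In Ndufs7, Ndufv2, Ndufa9, Ndufb5 and Ndufa4 the other 3 high-fat females lie below every chow female, and in Ndufs1 the 5 high-fat females lie below every high-fat male.

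Other core subunits had smaller differences in males. The log2 changes for Ndufv1, Ndufv2, Ndufs1, Ndufs3 and Ndufs8 were -0.05, -0.04, 0.03, -0.07 and -0.14, and none was called. Ndufv1, the subunit that binds NADH and flavin, stood between 1239 and 1335 CPM in high-fat males and between 1293 and 1446 CPM in chow males, and those ranges overlap. Ndufa4 stood at a mean of 1282 ± 60.7 CPM (SD, n = 5) in high-fat males and 1312 ± 69.3 CPM (n = 4) in chow males, also with overlap.

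The test of whether the diet acted differently in the sexes called 0 of the 36 genes and 0 of 18069 in all (0%). DESeq2 called 0 of the 36 and 58 in all, and edgeR gave an unadjusted p under 0.05 to 1 of the 36 and to 1839 in all. Of the 36 differences (diet effect in females minus that in males) 26 were above 0, with a median of 0.05. The 1 subunit gene with such a p was Ndufs1, with a difference of diet effects of -0.14 ± 0.06, and the next were Ndufs8 (0.16 ± 0.13) and Ndufa8, a proximal arm subunit (0.13 ± 0.13). Their adjusted p by edgeR were 0.461, 0.653 and 0.691. Without high-fat females 4 and 5 again 0 were called (0% of all genes), and the direction of the set turned over, with all 36 differences below 0, a median of -0.14 and 9 unadjusted p under 0.05. The lowest end of any single gene's 95% interval was then -0.48 and the highest 0.15, and neither a larger fall in females nor an equal one was shown.

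Between females and males on chow none of the 36 genes was called by edgeR or DESeq2, where edgeR called 3.22% of all genes. None had an unadjusted p under 0.05. The differences (female minus male) ran from -0.07 to 0.12 with a median of 0.01. The smallest p belonged to the X-linked gene Ndufa1, at 121.9 ± 12.5 CPM in females (SD, n = 5) and 112.2 ± 7.35 CPM in males (n = 4), a difference of 0.12 ± 0.09 (edgeR adjusted p = 0.567). Ndufb4 and Ndufa10, a proximal arm subunit, followed at 0.11 ± 0.09 and -0.07 ± 0.08 (edgeR adjusted p = 0.635 and 0.775). Ndufb11, the other X-linked member and chosen after its values were seen, differed by 0.09 ± 0.10.

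On the high-fat diet 1 of the 36 genes was called between the sexes, against 10.3% of all genes called either way and 3.92% called lower in females. Of the 36, 28 were above 0 (higher in females), with a median difference of 0.05. The called gene was Ndufs1, at 1366, 1325, 1278, 1374 and 1227 CPM in high-fat females and 1526, 1396, 1516, 1459 and 1476 CPM in high-fat males. All 5 females lay below all 5 males, and the difference was -0.17 ± 0.04 (edgeR adjusted p = 0.0201). The call ended without high-fat male 3 (adjusted p = 0.0529), in a fit to these groups alone (0.0944), when only the exon piece with the largest count was used (0.0601) and when a trend on GC content was taken out of each library (0.857, with a difference of -0.02). An exon of Ndufs1 overlaps Eef1b2 on the opposite strand, which had 4326 counts against 26442 of Ndufs1 in chow male 4, and counting by strand is not stated in the sources used here. Ndufb3 and Ndufb7, both of the distal arm, had the next smallest p, with differences of -0.09 ± 0.05 and 0.13 ± 0.08 (edgeR adjusted p = 0.267 and 0.286).

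Without high-fat females 4 and 5 the direction of the set turned over: all 36 differences were below 0, with a median of -0.12, and 5 genes were called lower, against 10.4% of genes called either way and 5.47% called lower. They were Ndufa9 (-0.20 ± 0.04), Ndufa10 (-0.17 ± 0.04), Ndufs1 (-0.16 ± 0.04), Ndufv2 (-0.18 ± 0.05) and Ndufb5 (-0.17 ± 0.05), with adjusted p by edgeR from 0.00869 to 0.0369. With 1 further library left out the count ran from 1 to 5. In 15 genes the 3 females lay below all 5 males, against 8.85% of all genes tested. This comparison shares its high-fat females with the diet comparison in females, so the 2 are not separate evidence. Genes of the circadian clock also differed between the sexes on both diets: Dbp, a clock output factor, was higher in females by 3.36 ± 0.21 on chow and 2.87 ± 0.19 on high fat (edgeR adjusted p = 1.41e-08 and 2.43e-08). The time of sampling is not given, and its part in the sex differences was not tested.

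High-fat females 4 and 5 stand apart in GC content across all genes, and the values of the subunit genes were set beside it. The members' transcripts had 40.3% to 60.4% GC (median 51.4%, against 49.7% for all genes tested). Over them the difference from chow females rose by 0.03 and 0.09 log2 units per 10 points in females 4 and 5. All genes gave 0.59 and 0.86, measured from the mean of the other 17 libraries and not from chow females. The 16 members under 50% GC had medians of 0.19 and 0.20 in those libraries, and the 20 at 50% or more had 0.19 and 0.25. The part of GC content in the members' values was not tested by this.

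A trend on GC content was then taken out of each library, with all 5 high-fat females kept. In females on high fat 12 genes were called lower and none higher, against 3.72% of all genes called either way. All 12 had a GC content of 50% or more. The median change was -0.18 in those 20 genes and -0.02 in the 16 under 50%. Of the 12, 5 were also among the 13 called without females 4 and 5 (Ndufs7, Ndufa2, Ndufa11, Ndufa12 and Ndufb4). The remaining 7 were Ndufv1, Ndufs3, Ndufa5, Ndufa6, Ndufa8, Ndufa13 and Ndufb7. Of the 13, 8 were not called with the trend removed, among them Ndufv2 and Ndufa9. Ndufa4, Ndufv2, Ndufs4, Ndufb2 and Ndufc1 then lay above 0. The change was 0.445 ± 0.221 (SE) for Ndufa4 and 0.359 ± 0.195 for Ndufv2. Ndufa9, Ndufb5 and Ndufb6 stayed below 0. Ndufs7 was called lower on high fat in females both ways. The trend was a spline fitted over all genes. A straight line over all genes rose by 0.59 and 0.86 log2 units per 10 points in females 4 and 5, as above. The members themselves rose by 0.03 and 0.09 there, measured from chow females. Taking the trend out lowered members of high GC content against the others in these libraries, whatever the diet did. Ndufs7 has 59.6% GC, so its calls in both fits are not separate support. For sex on high fat the same correction called 7 genes lower and none higher, against 7.99% of genes called either way.

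**Figure D5:**
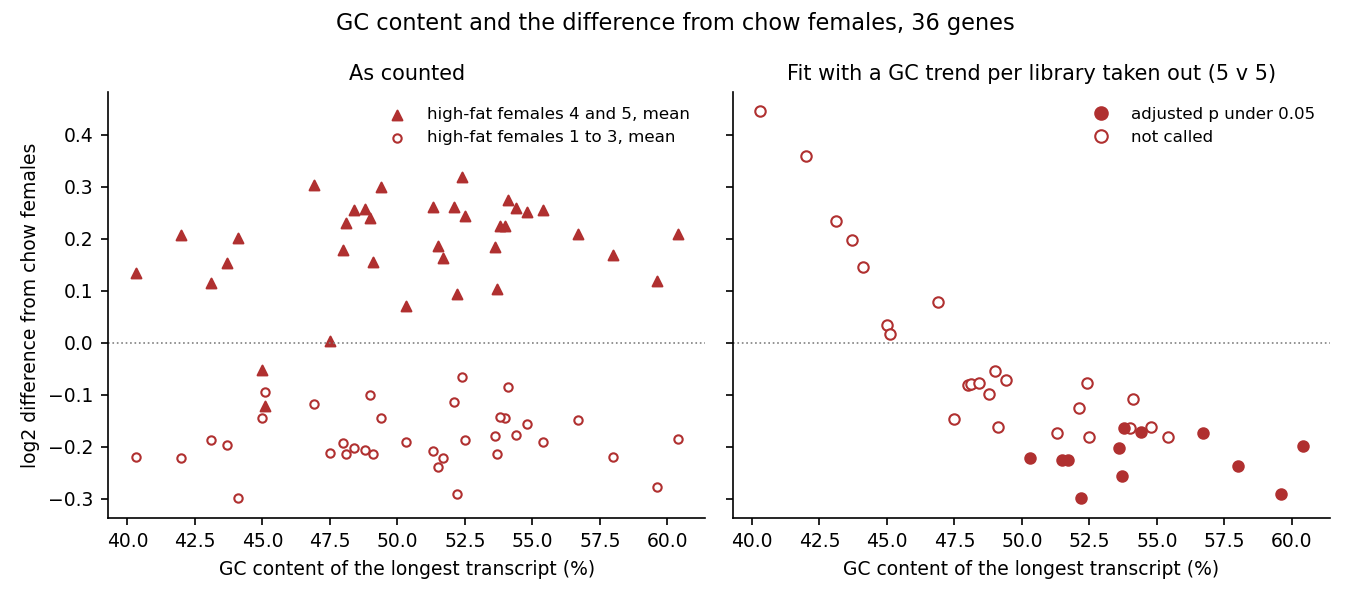
Log2 difference from chow females against the GC content of each gene's longest transcript, for the 36 genes. On the left, triangles are the mean of high-fat females 4 and 5 and circles that of females 1 to 3, as counted; on the right, the change fitted over all 5 after a GC trend per library was taken out, with filled circles for adjusted p under 0.05. On the left the triangles lie mostly above 0 and the circles mostly below, and on the right the 12 filled circles all lie at 50% GC or more.

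Ndufv3, a small N module subunit, has a long exon that is skipped in its short isoform. In GRCm38 that exon lies at chr17:31527310-31528401 (1092 bases), and its longest piece, chr17:31527840-31528401, holds 562 bases. This piece took 1.81% to 2.54% of the gene's counts in chow females, 1.98% to 2.36% in chow males, 2.05% to 2.56% in high-fat females and 2.0% to 2.47% in high-fat males. The 4 groups overlap. Per base the piece had 1.08% to 1.56% of the density of the gene's most counted piece in any library.

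Assembly factors build the complex and are not part of it. Of 18 tested complex I assembly factors none was called for diet in either sex. Without high-fat females 4 and 5, 5 were called lower in females, against 2.5% of all genes tested. They were Tmem70 (-0.22 ± 0.05), Acad9 (-0.19 ± 0.04), Timmdc1 (-0.20 ± 0.05), Foxred1 (-0.18 ± 0.05) and Ndufaf7, with adjusted p by edgeR from 0.0126 to 0.0429. All 18 were then below 0, with a median of -0.17. Timmdc1, a membrane arm assembly factor, was also called lower in males in that fit (-0.20 ± 0.04, edgeR adjusted p = 0.0135), where 1.23% of all genes were. Between the sexes on high fat, with all libraries, Tmem126b and Ndufaf1 were lower in females. They act together in assembly of the membrane arm. The differences were -0.39 ± 0.09 and -0.23 ± 0.07 (edgeR adjusted p = 0.00881 and 0.0392), where 3.92% of all genes were called lower. Their values without females 4 and 5 are not given here. On chow none of the 18 was called with all libraries. In the fit without females 4 and 5, 2 were called lower in females on chow, where 5.46% of genes were.

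The mitochondrially encoded subunits, the proton-pumping core, had other values. For diet in females none of the 7 was called, and their median was -0.31 with all libraries and -0.02 without females 4 and 5, where the nuclear genes had -0.02 and -0.20. In males their median was 0.27 with all 7 above 0 and none called. Without high-fat females 4 and 5, 3 were called higher in males, against 2.59% of all genes called either way. They were mt-Nd4 (0.30 ± 0.08), mt-Nd5 (0.31 ± 0.08) and mt-Nd6 (0.41 ± 0.10), with adjusted p by edgeR from 0.0275 to 0.0453. mt-Nd5 stood at 4520 and 2929 CPM in high-fat females 4 and 5, the lowest of all libraries, against 8830 to 12630 in females 1 to 3. Between the sexes on high fat all 7 were below 0 (lower in females), with a median of -0.69. Of the 7, 5 were called lower, against 10.3% of all genes called either way and 3.92% called lower. Without females 4 and 5 the differences of all 7 were again below 0, with a median of -0.37.

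Among genes that regulate mitochondrial genes, none of 10 was called for diet in either sex. In the comparison of females with males on high fat, without females 4 and 5, Ppargc1a, the coactivator PGC-1 alpha, was lower in females (-0.57 ± 0.12, edgeR adjusted p = 0.00621) and its relative Ppargc1b higher (0.50 ± 0.12, adjusted p = 0.0126). With all libraries neither was called (-1.09 ± 0.34 and 0.32 ± 0.14, edgeR adjusted p = 0.0502 and 0.135). The sex difference of Ppargc1a was not limited to high fat. On chow it was -0.50 in both fits, and it was called only without females 4 and 5 (edgeR adjusted p = 0.00675), where 10.5% of genes were called either way. Ndufa4l2, a paralog of Ndufa4 outside the rule, was higher in females than in males on high fat by 0.30 ± 0.07 (edgeR adjusted p = 0.0103), a call that ended without females 4 and 5 (0.22 ± 0.07, adjusted p = 0.0562). The fall in high-fat females 1 to 3 was not limited to complex I. Of 46 tested genes of the nuclear-encoded complexes II to V 12 were called lower there with a median of -0.18. Of 78 mitochondrial ribosomal protein genes 15 were, with a median of -0.15, against 2.5% of all genes tested. Whether complex I differs from these lists was not tested.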

How the data were processed

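RNA of 20 heart samples in 4 groups was measured by polyA RNA-seq, per the labels' protocols. The authors deposited whole-number counts, for 425461 exon pieces in 19 files and per gene in chow male 4. The submitters' processing notes name Salmon 1.5.1, DESeq2 1.32.0 and GRCm39, although the deposited values are not transcript estimates; 91% of genes had the same span in GENCODE vM21 (GRCm38), so coordinates are given in GRCm38. Pieces were summed per gene ID, so a read can count more than once. Joined pieces shared by several genes (5480 pieces, 1.35% to 1.49% of counts) were not used, which set aside 33.3% of the counts of Ndufb2 and 11.9% of Ndufb8. Exons of 11 members overlap a gene on the opposite strand, and counting by strand is not stated in the sources used here.

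One model over 4 groups was fitted with edgeR 4.0.16 (quasi-likelihood F-test, TMM, filterByExpr; 18069 genes tested, 15 residual degrees of freedom) in R 4.3.3, with Benjamini-Hochberg adjustment over all genes tested. CPM use TMM-scaled totals. Alternatives were DESeq2 1.42.0, its size factors, a replicate block, no filter, at least 1 CPM in at least 5 libraries, only the groups compared, no high-fat females 4 and 5, a GC trend per library (spline with 4 degrees of freedom), the largest exon piece, and each library left out. Further libraries left out after females 4 and 5 were added after seeing the data. The scripts were tested on simulated counts. The members, lists and tests were chosen with earlier results of these data known. Log2 changes are given for called members (up to 8 with the smallest p per comparison, otherwise the 3 smallest p), core subunits, Ndufa4, Ndufv3 and up to 4 called genes of each other list. Ndufb1-ps and Coa1 were not analysed here, and 1 member is counted but not reported by name.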

Additional observations from a re-analysis of the deposited data

Results flagged for a closer look

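In 144 sets of 1 gene in 1 group, 5 held a library far from the others of its group by Dixon's test, and chance gives about 1 in 20. In chow male 5, Ndufa3 stood at 352 CPM (next 300), Ndufa13 at 310 CPM (next 268) and Ndufb6 at 178 CPM (next 169). Ndufb5 stood at 700 CPM in chow female 5 (next 610), and Ndufb6 at 179 CPM in high-fat male 4 (next 161). These libraries have the highest medians of the 36 genes in their groups, 0.09, 0.13 and 0.02 log2 units relative to same-sex chow. In chow male 4, which no comparison uses, the 36 genes took 1.2% of the per-gene counts.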

How the results depend on the processing

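The number of subunit genes called was 0 for the diet effect in each sex, 0 for the difference between these effects, 0 for sex on chow and 1 for sex on high fat. It was the same with DESeq2, its size factors, no filter, a stricter filter and the replicate block. The replicate numbers did not pair the samples (correlations of same-numbered deviations -0.067 to 0.161), and the fit with the replicate block called 0 genes in 4 comparisons and 1 for sex on high fat. Only the groups compared gave 1 for diet in males and 0 for sex on high fat, and the largest exon piece gave 0 for the latter. Without high-fat females 4 and 5 the diet effect had 13 called genes in females and 1 in males, and sex on high fat had 5. With the GC trend removed the diet effect had 12 in females and sex on high fat 7. Leaving out each library in turn gave 0 to 0 in 4 comparisons and 0 to 1 for sex on high fat. Without high-fat females 4 and 5 and 1 further library the range was 0 to 24 for diet in females and 1 to 5 for sex on high fat.

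Over all genes edgeR called 457 and DESeq2 993 for diet among females, 138 and 256 among males, 0 and 58 for the difference, and 582 and 905 for sex on chow.

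Some directions reversed, none of them in a result that was called with all libraries or under that setting. Without females 4 and 5 the difference of diet effects became -0.027 for Ndufs8 and -0.0658 for Ndufa8, and the sex difference on high fat -0.0265 for Ndufb7. With single libraries left out, before or after those, Ndufb7 ran from -0.077 to 0.1744. With the GC trend removed, diet in females became 0.0161 for Ndufs1 and 0.0341 for Ndufb3, and the difference of diet effects 0.0026 for Ndufs1, -0.0553 for Ndufs8 and -0.0794 for Ndufa8. The sex difference on high fat became 0.0825 for Ndufb3 and -0.0823 for Ndufb7, and that of Ndufs1, which had been called, was -0.0179 and no longer called. In the fit with the GC trend removed, diet in females also lay above 0 for Ndufa4, Ndufv2, Ndufs4, Ndufb2 and Ndufc1, none of them called. Each of these had been called lower without females 4 and 5. The causes were not tested.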
